A study of Mus musculus with 2 samples.

Results

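Transcripts of 8 genes of lipid storage, lipid uptake and sterol synthesis were followed in tumor-infiltrating regulatory T (Treg) cells. The 8 genes, of 31053 mouse genes in the count matrix, were *Dgat2*, *Dgat1*, *Plin2*, *Pparg*, *Fabp5*, *Scd2*, *Insig1* and *Hmgcs1*, and all 8 had counts in Treg cells. They were chosen by their measured levels in these same cells, from the differences between Treg cells with and without *Il1rl1*, between Treg cells with high and no *Areg*, and between Treg cells, other T cells and myeloid cells. Those levels are therefore given as a description, and no test was applied to them.

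TCR-β+ T cells were sorted from B16 melanomas and from B16 melanomas engineered to express secreted IL-33 (B16–IL-33), each grown as a transplant in mice on the C57BL/6 background and harvested in the second week. B16 is a mouse melanoma cell line, and IL-33 is a cytokine whose receptor chain ST2 is encoded by *Il1rl1*. No further treatment was given, the age of the mice is not given in the sources used here, and cells of both tumors were tagged with hashtag antibodies and pooled into 1 droplet library read from the 5′ end of transcripts. The whole pool is thus 1 sample, cells are not replicates, and no p-value is given.

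Of 14035 barcodes, 9078 had 200 to 2500 detected genes and under 5% mitochondrial counts, with 254 to 14063 unique molecular identifiers (UMIs) per cell and a median of 2467. The hashtag library shared 11756 barcodes with this library, and the T cell receptor table shared 6665. Treg cells (*Foxp3* detected, no *Cd8a* or *Cd8b1*) numbered 2609, of which 504 held an *Il1rl1* UMI and 2105 did not, whereas 440 held at least 3 *Areg* UMIs and 1823 held none. CD8 T cells (more *Cd8a* and *Cd8b1* than *Cd4* and *Foxp3*) numbered 1260, conventional CD4 T (Tconv) cells (*Cd4* detected, no *Foxp3* or CD8 gene) 1769, and myeloid cells (*Csf1r* detected, no *Cd3e*) 129. Median UMIs per cell were 2780 in Treg, 2498 in Tconv, 3462 in CD8 and 4863 in myeloid cells. All 7 T cell markers were detected in Treg cells. Macrophage and monocyte markers were present as well, with 12 of 12 detected at a summed 245.9 CPM (UMIs of the gene per 1000000 UMIs of all genes in the class) in Treg cells, 253 in CD8, 246.0 in Tconv and 11820 in myeloid cells. Of 6 adipocyte markers, 3 were detected in Treg cells at a summed 5.33 CPM, with 42 UMIs of *Fabp4* and 1 each of *Adipoq* and *Plin1*, and *Cidec*, *Lep* and *Retn* were at 0. The classes overlap by 9 Treg, 5 CD8 and 4 Tconv cells that are also in the myeloid class.

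Cells store fatty acids as triglycerides in lipid droplets. DGAT1 and DGAT2 catalyse the last step of triglyceride synthesis, perilipin 2 (*Plin2*) coats the droplet, the fatty acid binding protein FABP5 carries fatty acids inside the cell, and PPARγ (*Pparg*) is a nuclear receptor for lipids that is known in adipocytes, macrophages and Treg cells of adipose tissue. Stearoyl-CoA desaturase 2 (*Scd2*) makes monounsaturated fatty acids, HMG-CoA synthase 1 (*Hmgcs1*) is an early enzyme of cholesterol synthesis, and INSIG1 retains the sterol sensor SCAP in the endoplasmic reticulum, so that the transcription factor SREBP stays inactive while sterols are plentiful.

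*Hmgcs1* and *Insig1* are textbook targets of SREBP, and their upstream stretches are shown because each transcript was at a higher level in Treg cells that held the other, as the co-detection values show. Whether SREBP has a part in that co-detection was not tested. The stretches are the 250 bases before the start that RefSeq gives each gene, which is not the start in the GENCODE coordinates given further on, so that the *Insig1* stretch runs past the GENCODE start and the *Hmgcs1* stretch ends short of it. They are written 5′ to 3′ on the strand of the gene, from RefSeq on GRCm38.p6, at chr13:119690101-119690350 (+) for *Hmgcs1* and at chr5:28071162-28071411 (+) for *Insig1*. Capitals mark matches on either strand to the sterol element TCACNCCAC and to the CCAAT box, which appears here as its reverse complement ATTGG.
Hmgcs1: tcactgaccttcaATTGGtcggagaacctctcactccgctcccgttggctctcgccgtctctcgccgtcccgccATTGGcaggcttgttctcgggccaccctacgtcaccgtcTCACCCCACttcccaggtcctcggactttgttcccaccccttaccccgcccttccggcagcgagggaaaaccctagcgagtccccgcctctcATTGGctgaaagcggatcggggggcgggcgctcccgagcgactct
Insig1: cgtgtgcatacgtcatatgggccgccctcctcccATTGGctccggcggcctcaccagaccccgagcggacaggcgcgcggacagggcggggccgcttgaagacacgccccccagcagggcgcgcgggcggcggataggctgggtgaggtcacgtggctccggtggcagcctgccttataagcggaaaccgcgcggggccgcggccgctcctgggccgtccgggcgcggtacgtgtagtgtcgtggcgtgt
The sterol element was found once before *Hmgcs1*, 137 to 129 bases ahead of the RefSeq start, and in 346 of 32851 mouse promoters of this length (1.05%). The CCAAT box was found 3 times before *Hmgcs1* and once before *Insig1*, and in 33.8% of all promoters. The stretch before *Insig1* holds no match to the letters TCACNCCAC, which says nothing about other forms of the element. Among 15 cholesterol synthesis genes with an entry, of 20 listed, 14 held a CCAAT box and 1, *Hmgcs1*, held the sterol element. Entries were found for 4 of the 8 genes (*Plin2*, *Pparg*, *Insig1* and *Hmgcs1*), whereas *Dgat2*, *Dgat1*, *Fabp5* and *Scd2* had none.

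Of the 8 genes, *Dgat2* differed most between Treg cells with and without *Il1rl1*. Its summed level was 119.7 CPM (95% Poisson interval 104 to 138, 196 UMIs) in Treg cells with *Il1rl1* and 20.1 CPM (16.8 to 23.8, 133 UMIs) in those without, a ratio of 5.96 (4.76 to 7.49). These intervals, and all intervals that follow, are at 95% and cover counting error only. The share of cells with a *Dgat2* UMI was 22.2% against 4.18%, at median depths of 2850 and 2772 UMIs, and after each cell was thinned to 1500 UMIs it was 14.9% against 2.44%. For comparison, the share was 1.11% of CD8 T cells and 2.33% of myeloid cells, which were deeper, and after thinning it was 0.434% of CD8 T cells. *Dgat2* (ENSMUSG00000030747, GRCm38 chr7:99153658-99182719, minus strand) is a protein-coding gene with no overlapping gene in the annotation.

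The *Dgat2* level was higher at each step of *Il1rl1* UMIs per cell up to 3 to 5. It was 20.1 CPM in 2105 Treg cells with no *Il1rl1* UMI, 85.9 in 256 cells with 1, 107 in 127 cells with 2 and 193 in 108 cells with 3 to 5 UMIs. The intervals of 1 UMI (66.7 to 109) and 2 UMIs (77.4 to 145) overlap, whereas that of 3 to 5 UMIs (152 to 240) lies above both. In the 13 cells with 6 or more it was 158.5 CPM (68.4 to 312, 8 UMIs), an interval that overlaps those of 1, 2 and 3 to 5 UMIs. The share of cells with *Dgat2* was 4.18%, 16.8%, 19.7%, 35.2% and 46.2% over the same steps, although the cells with 3 to 5 and with 6 or more *Il1rl1* UMIs were also deeper, with medians of 3716 and 4635 UMIs. Within 4 windows of depth the ratio between Treg cells with and without *Il1rl1* was 5.54 at 1000 to 2000 UMIs, 4.55 at 2000 to 3000, 6.02 at 3000 to 4000 and 6.84 above.

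*Dgat2* also differed by *Areg*, the gene of the growth factor amphiregulin, with 70.0 CPM (57.3 to 84.8) in Treg cells with at least 3 *Areg* UMIs and 32.1 CPM (27.6 to 37.2) in those with none, a ratio of 2.18 (1.70 to 2.79). Just outside and just inside the limit of 3 *Areg* UMIs, the level was 32.5 CPM (15.6 to 59.8, 10 *Dgat2* UMIs) in 88 cells with 2 *Areg* UMIs and 58.1 (38.9 to 83.5, 29 *Dgat2* UMIs) in 150 cells with 3 to 5. These intervals overlap. Split by both genes, the *Areg* difference was seen in Treg cells without *Il1rl1* (44.7 against 15.6 CPM, ratio 2.86, 1.94 to 4.20) and was not detectable in those with it (126 against 115.5 CPM, ratio 1.09, 0.777 to 1.51), and the difference between the ratios was not tested. Of the 504 Treg cells with *Il1rl1*, 256 held only 1 UMI of it. Cells in which *Il1rl1* went undetected can therefore lie among those without it, in this and every other split by *Il1rl1*. Their part in the *Areg* ratio was not tested. The *Il1rl1* difference was seen in each *Areg* class, with ratios of 7.40 (5.45 to 10.1) at no *Areg*, 8.12 (4.18 to 16.6) at 1 to 2 UMIs and 2.81 (1.88 to 4.23) at 3 or more. The *Areg* ratio was 4.02 in cells of 1000 to 2000 UMIs and 1.45 (0.942 to 2.20) in cells above 4000 UMIs, where the interval includes equal levels.

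*Dgat2* transcripts were concentrated in few cells. Of 2609 Treg cells, 125 held 1 *Dgat2* UMI, 46 held 2 and 29 held at least 3, with a highest value of 8. Of the 532 *Dgat2* UMIs in all cells passing the filter, 196 came from the 504 Treg cells with *Il1rl1*. These cells are 5.55% of the cells that passed.

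*Dgat1*, which encodes the other enzyme of the same step, was detected in more Treg cells and differed less by *Il1rl1*. It was at 414 CPM (383 to 446) with *Il1rl1* and 264 CPM (252 to 276) without, a ratio of 1.57 (1.43 to 1.72), with a UMI in 59.7% against 44.4% of cells. By *Il1rl1* UMIs its level was 264, 372, 402, 481 and 634 CPM at 0, 1, 2, 3 to 5 and 6 or more, and the intervals of 1 UMI (330 to 417) and 2 UMIs (341 to 470) overlap. Its ratio was 1.496 (1.33 to 1.68) in cells with no *Areg*, 2.13 (1.68 to 2.70) in cells with 1 to 2 *Areg* UMIs and 1.40 (1.17 to 1.68) in cells with 3 or more. By *Areg*, *Dgat1* was at 341.5 against 285.8 CPM, a ratio of 1.19 (1.08 to 1.32), which is under the 1.5-fold used here to call a gene. *Dgat1* lies at GRCm38 chr15:76502015-76511953 on the minus strand.

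**Figure D1:**
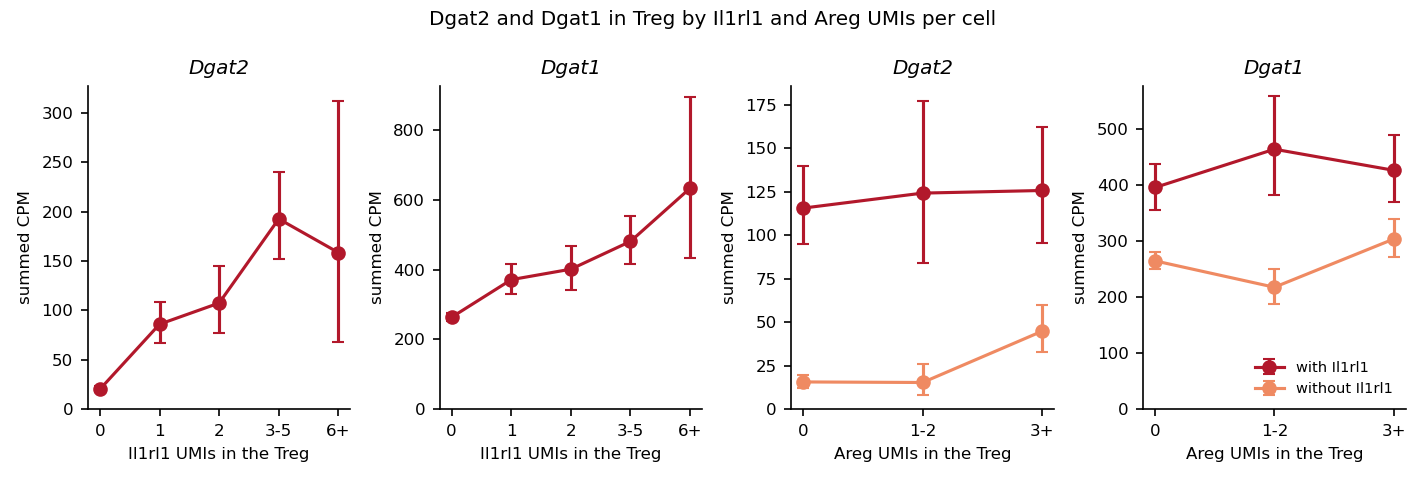
Summed CPM (linear axes from 0) of *Dgat2* and *Dgat1* in Treg cells by the number of *Il1rl1* UMIs per cell and by the number of *Areg* UMIs per cell, the latter split by *Il1rl1*; points are class levels and bars 95% Poisson intervals. *Dgat2* was at 193 CPM at 3 to 5 *Il1rl1* UMIs and, in 13 cells, at 158.5 CPM at 6 or more, and by *Areg* its level in cells without *Il1rl1* was 44.7 CPM at 3 or more UMIs against 15.6 at 0.

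The droplet coat gene *Plin2*, the carrier gene *Fabp5* and the desaturase gene *Scd2* did not differ beyond their intervals between Treg cells with and without *Il1rl1* when all cells were summed. *Plin2* was at 75.1 (62.4 to 89.6) against 80.5 CPM (73.8 to 87.6), a ratio of 0.933 (0.761 to 1.14). *Fabp5* was at 193 (172 to 215) against 180 CPM (170 to 190), a ratio of 1.07 (0.946 to 1.22) that was 1.52 (1.32 to 1.76) without cells holding at least 2 macrophage UMIs, and *Scd2* at 22.0 against 20.8 CPM, a ratio of 1.06 (0.710 to 1.53). Summed macrophage and monocyte markers were at 110 against 280 CPM in the same classes, and 23.2% against 21.1% of cells held a *Fabp5* UMI. None of the 3 intervals over all cells excludes equal levels, and the widest, for *Scd2*, allows a difference of up to 1.53-fold. *Pparg* had 33 UMIs in 29 of 2609 Treg cells, 7 UMIs in cells with *Il1rl1* and 26 in cells without, at 4.27 against 3.92 CPM with a ratio of 1.09 (0.399 to 2.58), so that only differences larger than this interval could be seen.

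*Hmgcs1* was lower in Treg cells with *Il1rl1*. It was at 25.03 CPM (18.0 to 34.0, 41 UMIs) in these cells and at 41.4 CPM (36.6 to 46.6, 274 UMIs) in those without, a ratio of 0.605 (0.425 to 0.843). The difference was present in Treg cells with no *Areg* (22.7 against 43.6 CPM, ratio 0.520, 0.315 to 0.816) and was not detectable in those with 3 or more *Areg* UMIs (34.05 against 33.03 CPM, ratio 1.03, 0.531 to 1.92), and the difference between the ratios was not tested. It was also uneven over depth, with ratios of 0.123, 0.896, 0.722 and 0.584 in the 4 windows from the shallowest to the deepest, the first resting on 1 UMI against 36. *Insig1* was at 19.5 against 25.7 CPM, a ratio of 0.761 with an interval (0.505 to 1.12) that includes equal levels. *Hmgcs1* (chr13:119690379-119708260, plus strand) overlaps an antisense gene, *Gm48342*, and the strand setting of the counting is not given in the sources used here.

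Of the 7 genes with at least 50 UMIs in the classes compared, 2 (*Dgat2* and *Dgat1*) were at least 1.5-fold higher in Treg cells with *Il1rl1*, where 4.36% of 8380 genes were, and 1 (*Hmgcs1*) was at least 1.5-fold lower, where 7.16% were. By *Areg*, 1 of 7 (*Dgat2*) was higher, against 3.14% of 8048 genes, and 0 of 7 were lower, against 6.16%. The genes were chosen on these contrasts, so nothing is read from the shares.

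**Figure D2:**
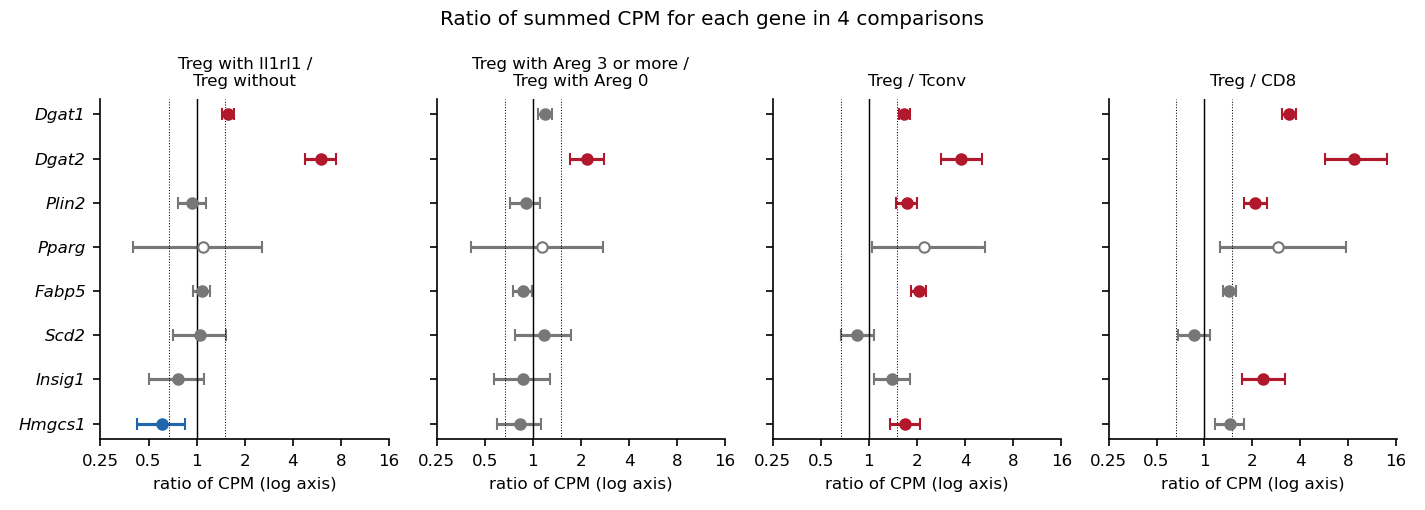
Ratio of summed CPM (log axis) for each of the 8 genes in 4 comparisons, with exact 95% counting intervals; red and blue points are at least 1.5-fold higher or lower (dotted lines), grey points neither, and open points rest on under 50 UMIs. *Dgat2* has the highest ratio in each panel, from 2.18 by *Areg* to 8.75 against CD8 T cells, and *Hmgcs1* is the blue point, at 0.605.

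Against other T cells, both DGAT genes were higher in Treg cells. *Dgat2* was at 39.8 CPM (35.6 to 44.4) in Treg, 10.6 (7.91 to 13.8) in Tconv and 4.55 (2.88 to 6.83) in CD8 T cells, ratios of 3.77 (2.82 to 5.14) and 8.75 (5.73 to 14.0). *Dgat1* was at 293.5 CPM in Treg, 176 in Tconv and 86.9 in CD8 T cells, ratios of 1.67 (1.54 to 1.80) and 3.38 (3.05 to 3.75), with a UMI in 47.3%, 30.0% and 22.9% of cells. Both were rare in myeloid cells, with 5 UMIs of *Dgat1* (7.71 CPM, ratio to Treg 0.0263, 0.00852 to 0.0614) and 3 UMIs of *Dgat2* (4.62 CPM, ratio to Treg 0.116, 0.0238 to 0.342). In order of level, *Dgat1* ran from Treg cells with *Il1rl1* through Treg cells without, Tconv and CD8 to myeloid cells with no overlap between neighbouring intervals. *Dgat2* followed the same order down to CD8 T cells, which did not differ from myeloid cells beyond their intervals.

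*Plin2* and *Fabp5* were higher in Treg than in Tconv cells and far higher in myeloid cells. *Plin2* was at 79.4 CPM in Treg, 46.0 in Tconv, 38.2 in CD8 and 743 in myeloid cells, where 71.3% of cells held a UMI, against 16.1% of Treg cells. *Fabp5* was at 182 CPM in Treg, 88.8 in Tconv, 127.6 in CD8 and 2993 in myeloid cells. The *Fabp5* sum was uneven within Treg cells. The 1% of Treg cells with the most *Fabp5* held 41.6% of its UMIs, and 1 cell held 137 of the 1506. Without that cell the ratio of Treg to Tconv was 1.87 (1.68 to 2.08) in place of 2.05 (1.85 to 2.29). A *Fabp5* UMI was found in 21.5% of Treg, 12.1% of Tconv and 15.9% of CD8 T cells. *Plin2* lies at chr4:86648386-86670060 (minus strand) and *Fabp5* at chr3:10012548-10016607 (plus strand). Whether reads shared with processed pseudogene copies alter the level of *Fabp5* was not tested, so that level is uncertain.

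The macrophage genes moved with these 2 members. The 73 Treg cells with at least 2 UMIs from 8 macrophage genes (*Csf1r*, *C1qa* and others) had *Fabp5* at 1670 CPM and *Plin2* at 423 CPM, whereas the other 2536 had them at 120 and 65.1 CPM. The summed macrophage and monocyte markers were at 110 CPM in Treg cells with *Il1rl1* and 280 in those without, and at 95.4 CPM with 3 or more *Areg* UMIs and 317 with none. Without cells holding at least 2 such UMIs, *Fabp5* in Treg cells was 1.52-fold higher with *Il1rl1* (1.32 to 1.76) and 1.51-fold higher with 3 or more *Areg* UMIs (1.29 to 1.76), the latter in place of a ratio of 0.866 (0.752 to 0.993). Over all Treg cells, the share with a *Fabp5* UMI was 23.2% with *Il1rl1* and 21.1% without. The 1% of cells with the most *Fabp5* held 30.1% and 44.0% of its UMIs in these 2 classes. The part of such cells in the 1.52-fold ratio was not tested. The ratios of *Plin2* were then 1.02 (0.818 to 1.27) and 1.15 (0.913 to 1.44). Against Tconv, *Fabp5* was 2.34-fold (2.04 to 2.71) and *Plin2* 2.03-fold (1.70 to 2.45) higher in Treg cells without such cells on either side. *Dgat2* was little altered, at 40.9 CPM in the 2536 cells. At the ratio that myeloid cells show to *Lyz2*, a macrophage gene at 98.9 CPM in Treg cells, the Treg level of *Lyz2* corresponds to 44.3 CPM of *Fabp5*, 11 of *Plin2* and 0.479 of *Pparg*. The part of macrophage RNA in the values that include such cells was not tested.

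*Pparg* was rare in T cells and was at 32.4 CPM (20.03 to 49.5) in myeloid cells, 8.10-fold (4.46 to 14.4) above Treg cells. It had 33 UMIs in Treg (3.99 CPM), 9 in Tconv (1.79 CPM) and 7 in CD8 T cells (1.39 CPM), in 1.11%, 0.396% and 0.476% of cells. Of the 33, 4 lay in the 73 Treg cells with macrophage UMIs. Of the 9 in Tconv, 6 lay in 4 of the 106 Tconv cells with *Il1rl1*. An antisense gene, *Gm44079*, overlaps *Pparg* (chr6:115360951-115490399, plus strand).

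*Scd2* was the only one of the 8 genes whose level in Treg cells, 21.1 CPM (18.1 to 24.4), was below that in both Tconv (24.9, 20.7 to 29.7) and CD8 T cells (24.5, 20.4 to 29.3), and all 3 intervals overlap. *Scd2* lies at chr19:44293674-44306864 and *Insig1* at chr5:28071363-28078662, both on the plus strand. *Insig1* was at 24.4 CPM in Treg, 17.5 in Tconv, 10.5 in CD8 and 32.4 in myeloid cells, with ratios of Treg to Tconv of 1.40 (1.08 to 1.81) and of Treg to CD8 of 2.33 (1.72 to 3.22). *Hmgcs1* was at 38.1 CPM in Treg, 22.7 in Tconv, 26.5 in CD8 and 32.4 in myeloid cells, with ratios of 1.68 (1.35 to 2.10) and 1.44 (1.17 to 1.77). *Hmgcs1* in Treg cells with *Il1rl1*, at 25.03 CPM, lay between Tconv and CD8 T cells, and these 3 intervals overlap. CD8 T cells held a *Hmgcs1* UMI in 9.44% of cells and Treg cells in 9.62%, although CD8 T cells were deeper. After thinning these shares were 3.56% and 5.06%.

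**Figure D3:**
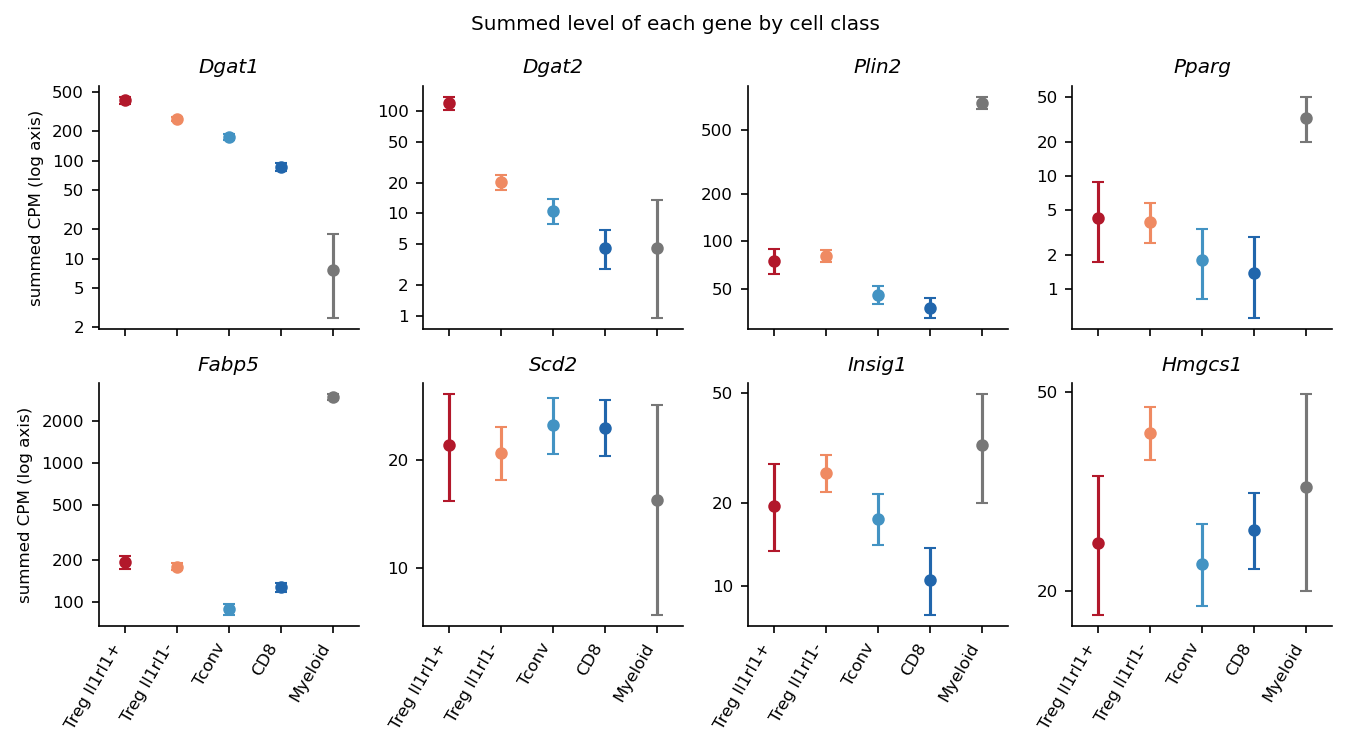
Summed CPM (log axes, a separate range for each gene) of the 8 genes in Treg cells with and without *Il1rl1*, Tconv, CD8 and myeloid cells, with 95% Poisson intervals as bars. *Dgat2* stands at 119.7 CPM in Treg cells with *Il1rl1* and at 20.1 or less elsewhere, whereas *Plin2*, *Pparg* and *Fabp5* are highest in myeloid cells, at 743, 32.4 and 2993 CPM.

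Of the 7 genes with at least 50 UMIs, 5 (*Dgat1*, *Dgat2*, *Plin2*, *Fabp5* and *Hmgcs1*) were at least 1.5-fold higher in Treg than in Tconv cells, where 12.6% of 9280 genes were, and 0 were lower, where 5.82% were. Against CD8 T cells 4 of 7 (*Dgat1*, *Dgat2*, *Plin2* and *Insig1*) were higher, against 22.5% of 9288 genes, and 0 were lower, against 7.16%. In myeloid cells 3 of 8 (*Plin2*, *Pparg* and *Fabp5*) were higher than in Treg cells, against 15.4% of 8642 genes, and 2 (*Dgat1* and *Dgat2*) were lower, against 45.7%. These contrasts, too, had a part in the choice of the genes.

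The choice did not use the cell cycle, tumor tags, clones, co-detection within Treg cells or *Il1rl1* in other T cells. In 511 cycling Treg cells, 0 of 7 genes were at least 1.5-fold higher than in the other 2098, against 4.73% of 8380 genes, and 0 were lower, against 3.89%. *Dgat2* was at 30.1 against 42.8 CPM, a ratio of 0.704 (0.520 to 0.937). It was uneven over depth, at 0.113 (1 UMI against 53), 1.08, 1.20 and 0.725 in the 4 windows from the shallowest to the deepest, and all but the first of these intervals include equal levels. Cycling Treg cells were deeper (median 3302 against 2688 UMIs) and held more macrophage and monocyte marker UMIs (352 against 214 CPM), whose part in the ratio was not tested. The ratios of the other 6 ran from 0.939 for *Hmgcs1* to 1.07 for *Plin2*, and all 6 intervals include equal levels.

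*Dgat2* was also found with *Il1rl1* outside the Treg class, a comparison chosen after its values were seen. In 106 Tconv cells with *Il1rl1*, *Dgat2* was at 79.1 CPM (51.7 to 116, 26 UMIs in 11 cells) and in the other 1663 at 5.76 CPM (3.79 to 8.37, 27 UMIs in 21 cells). In 44 CD8 T cells with *Il1rl1* it was at 55.1 CPM (26.4 to 101, 10 UMIs in 4 cells) and in the other 1216 at 2.67 CPM (1.42 to 4.56, 13 UMIs in 10 cells). The highest *Dgat2* value in a Tconv cell was 9 UMIs, and the intervals do not cover such uneven counts between cells. *Dgat1* was at 338 against 165 CPM in the same Tconv cells and at 254 against 80.7 CPM in the same CD8 T cells. In the same Tconv cells *Pparg* was at 18.3 CPM (6.70 to 39.75, 6 UMIs in 4 cells) against 0.639 (0.132 to 1.87, 3 UMIs in 3 cells). *Scd2* was at 51.7 (30.1 to 82.85) against 23.0 CPM (18.9 to 27.8), and the intervals of *Plin2*, *Fabp5*, *Insig1* and *Hmgcs1* overlapped. In the CD8 T cells with *Il1rl1*, *Pparg* had 0 UMIs and *Scd2* was at 16.5 against 24.8 CPM. The Tconv and CD8 T cells with *Il1rl1* also carried Treg genes. The Tconv cells with *Il1rl1* had *Il2ra* at 405 against 91.9 CPM, *Ikzf2* at 502 against 264 CPM and *Ctla4* at 733.5 against 399 CPM, and 20.5% of the CD8 T cells with *Il1rl1* held a *Foxp3* UMI, against 5.67% of the others. Whether these are Treg cells in which *Foxp3* went undetected, or doublets, cannot be told apart here from true Tconv or CD8 T cells.

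A contrast in the same direction was seen in Treg barcodes of the same library outside the filter. In Treg barcodes above the gene limit *Dgat2* was at 40.5 CPM (23.6 to 64.8) in 35 with *Il1rl1* and at 9.67 CPM (6.20 to 14.4) in 189 without. In those with 5 to 10% mitochondrial UMIs it was at 104 CPM (41.6 to 213) in 43 with *Il1rl1* and at 12.8 CPM (3.48 to 32.7) in 208 without. The macrophage gene *Lyz2* was at 23.8 CPM with and 541 without *Il1rl1* above the gene limit. At 5 to 10% mitochondrial UMIs it was at 29.6 and 28.8 CPM. The part of macrophage RNA or doublets in these contrasts was not tested.

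Hashtag UMIs gave 55 Treg cells a B16–IL-33 tag and 245 a B16 tag. Only 2 and 30 of these held at least 2 tag UMIs, so the tumor of a cell is uncertain. *Dgat2* was at 88.3 CPM (50.5 to 143.5, 16 UMIs) in Treg cells tagged B16–IL-33 and at 8.50 CPM (3.67 to 16.8, 8 UMIs) in those tagged B16, a ratio of 10.4 (4.20 to 28.0). The ratio was 6.94 (1.997 to 25) for the tags numbered 1 and 21.1 (4.37 to 201) for those numbered 2, the latter on 9 and 2 UMIs. *Il1rl1* itself was at 166 against 18.1 CPM. Among tagged Treg cells without *Il1rl1*, *Dgat2* was at 41.3 against 7.87 CPM, a ratio of 5.25 (1.46 to 18.2) on 6 and 7 UMIs. By tag number this ratio was 4.98 (0.988 to 23.1) for 1 and 5.80 (0.420 to 80.0) for 2, and both intervals include equal levels. Median depths of these cells were 2555 against 3345 UMIs. Among all tagged Treg cells, *Dgat1* was at 315 against 226 CPM, a ratio of 1.39 (1.02 to 1.87), and *Plin2* at 110 against 111 CPM (0.999, 0.586 to 1.62). By tag number the *Dgat1* ratio was 2.30 (1.375 to 3.74) for 1 and 1.05 (0.699 to 1.55) for 2, and that of *Plin2* 0.561 (0.175 to 1.39) and 1.76 (0.903 to 3.26). *Fabp5* was at 110 against 395 CPM, a ratio of 0.279 (0.169 to 0.438). The B16 side held 372 *Fabp5* UMIs in 245 cells. Cells with only the B16 tag numbered 1 held 167 UMIs in 80 cells, and those with only the tag numbered 2 held 66 in 160. The remaining UMIs lay in the few cells with both B16 tags. Whether the 1 Treg cell with 137 *Fabp5* UMIs is among them was not tested, and the interval does not cover such a cell. For *Fabp5* the tags disagreed in size, with 0.285 (0.121 to 0.575) for those numbered 1 and 0.854 (0.420 to 1.59) for those numbered 2. The tags come from 1 pool, so a tumor effect and a difference between the mice cannot be told apart.

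Of 1705 Treg cells with a clonotype, 98 were in 46 clones of at least 2 Treg cells. *Dgat2* was at 8.83 CPM (1.82 to 25.8, 3 UMIs) in these and at 35.3 CPM (30.7 to 40.5, 208 UMIs) in the 1607 single cells, a ratio of 0.2501 (0.0512 to 0.741). Among Treg cells without *Il1rl1* the ratio was 0.527 (0.107 to 1.59), which includes equal levels. *Il1rl1* was at 35.3 against 96.4 CPM in the 98 and the 1607 cells. *Hmgcs1* was at 61.8 against 37.5 CPM, a ratio of 1.65 whose interval (1.00 to 2.58) reaches equal levels, and *Dgat1* at 253 against 283 CPM, a ratio of 0.895 (0.712 to 1.11).

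Co-detection was compared in Treg cells of 2000 to 4000 UMIs, to hold depth near constant. The 87 cells with *Dgat2* had *Il1rl1* at 346 CPM against 107 CPM in the other 1047, a ratio of 3.23 (2.53 to 4.08), *Areg* at a ratio of 1.88 (1.70 to 2.07) and *Gata3*, a transcription factor of tissue Treg cells, at 1.61 (1.22 to 2.09). The *Il1rl1* and *Areg* values restate contrasts that had a part in the choice. Among the 8 genes, *Fabp5* was at 262 against 110 CPM in these cells, a ratio of 2.38 (1.81 to 3.09), while *Dgat1* (1.10, 0.884 to 1.36) and *Plin2* (0.674, 0.353 to 1.18) did not differ beyond their intervals. Over Treg cells of all depths the ratios were 1.28 (1.08 to 1.51) for *Fabp5*, 1.19 (1.04 to 1.36) for *Dgat1* and 0.730 (0.522 to 0.994) for *Plin2*, and these intervals do not include equal levels. Taken from the other side, cells of the same window with *Dgat1* had *Dgat2* at 49.9 against 31.4 CPM, a ratio of 1.59 (1.11 to 2.30). *Lyz2* in the 87 cells was at 19.0 against 42.1 CPM (0.451, 0.144 to 1.08), and *C1qa* and *Csf1r* were at 0, whereas over all depths *Lyz2* was at 194.5 against 89.7 CPM, a ratio of 2.17 (1.80 to 2.60) with 141 UMIs in 10 of 200 cells, and the part of macrophage RNA in these ratios was not tested.

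The sterol genes were found together. In the same depth window *Insig1* was at 48.0 CPM in 100 cells with *Hmgcs1* and at 20.8 CPM in 1034 without, a ratio of 2.31 (1.19 to 4.17). The 69 cells with *Insig1* had *Hmgcs1* at 82.7 against 32.9 CPM (2.52, 1.41 to 4.23) and *Scd2* at 53.5 against 16.3 CPM (3.29, 1.54 to 6.40). These are the genes whose upstream stretches are printed above, apart from *Scd2*. The co-detected cells differ in other ways that were not held constant.

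Genes of the same pathways, from lists of known members, were compared in the same way. By *Il1rl1* the share of all genes past the limit was 4.36% higher and 7.16% lower, and nothing particular to a list is read from its count. Of 10 triglyceride synthesis genes with at least 50 UMIs, only the 2 DGAT genes were at least 1.5-fold higher in Treg cells with *Il1rl1* and 1 was lower, the acyltransferase gene *Agpat2* (4.88 against 9.21 CPM, ratio 0.530, 0.219 to 1.11), with a list median of 1.23 against 0.997 over all 8380 genes. Of 4 triglyceride breakdown genes, 2 were lower with *Il1rl1*, the lipase gene *Lipe* (0.457, 0.176 to 0.998) and the lipase cofactor gene *Abhd5* (0.498, 0.206 to 1.04), with a median of 0.638. Both rested on 7 or 8 UMIs in the smaller class. Of 4 droplet coat genes, 5 uptake genes and 6 fatty acid synthesis genes, 0 were past 1.5-fold in either direction, and their medians were 1.05, 0.852 and 1.02.

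Of 17 cholesterol synthesis genes, 3 were lower in Treg cells with *Il1rl1*, namely *Hmgcs1*, the squalene epoxidase gene *Sqle* (0.412, 0.200 to 0.767) and *Nsdhl* (0.515, 0.273 to 0.901). Another 1 was higher, *Hsd17b7* (1.54, 0.809 to 2.80), and the list median was 0.722. Against Tconv cells, 12 of 17 were higher in Treg cells, where 12.6% of all genes were, and 0 lower, where 5.82% were, with a median of 1.68 against 1.07 over all genes, and against CD8 T cells 9 of 18 were higher (22.5% of all genes) and 0 lower (7.16%), with a median of 1.48 against 1.16. By *Areg* 0 of 16 were higher, where 3.14% of all genes were, and 1 was lower, where 6.16% were. The 1 was *Mvk* (0.569, 0.217 to 1.27, 7 against 46 UMIs), and nothing is read from this count. Of 16 genes of sterol sensing and transport, 4 were higher with *Il1rl1* and 0 lower (4.36% and 7.16% of all genes), with a list median of 0.932, among them the lysosomal cholesterol transporter gene *Npc1* (1.71, 1.21 to 2.38) and *Soat1* (1.65, 1.34 to 2.04), which encodes an enzyme that esterifies cholesterol for storage.

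**Figure D4:**
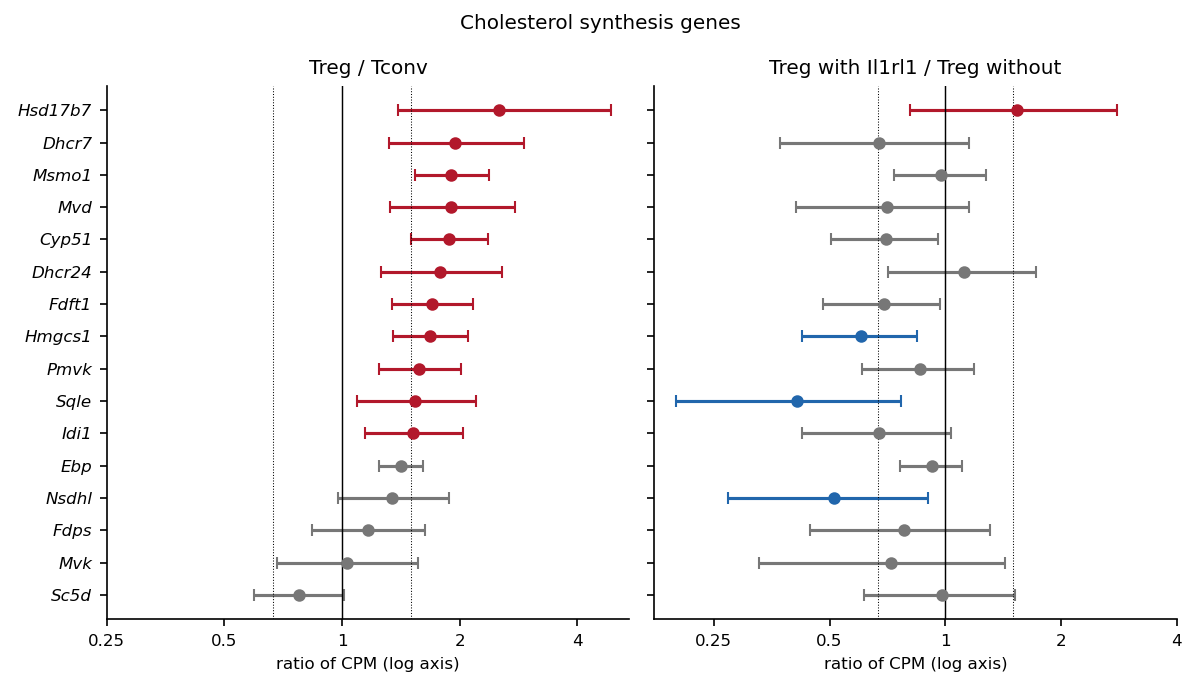
Ratio of summed CPM (log axis) with exact 95% counting intervals for 16 cholesterol synthesis genes, between Treg and Tconv cells and between Treg cells with and without *Il1rl1*; red and blue points are at least 1.5-fold higher or lower (dotted lines). On the Tconv side 11 of 16 genes are past 1.5-fold, and by *Il1rl1* 3 are lower, *Sqle*, *Nsdhl* and *Hmgcs1*, and 1 is higher.

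Other lipid lists held single genes past the limit. Of 16 fatty acid oxidation genes, *Cpt1a*, which encodes the gatekeeper of mitochondrial fatty acid import, was higher in Treg cells with *Il1rl1* (28.7 against 18.4 CPM, 1.56, 1.09 to 2.20) and *Acadl*, an acyl-CoA dehydrogenase gene, lower (46.4 against 70.9 CPM, 0.654, 0.506 to 0.835). Of 4 genes of PPAR receptors, partners and targets, 0 were past the limit by *Il1rl1*, and by *Areg* the receptor gene *Ppard* was higher (1.63, 0.966 to 2.68). Also by *Areg*, *Mbtps1* of the sterol list (0.604, 0.415 to 0.858) and *Decr1* of the oxidation list (0.666, 0.338 to 1.21) were lower. The triglyceride synthesis list held only *Dgat2* past the limit by *Areg*, and 0 of 4 droplet coat, 4 breakdown, 4 uptake and 6 fatty acid synthesis genes were past it. Over all genes the shares by *Areg* were 3.14% higher and 6.16% lower, and nothing particular to a list is read from these counts. Of 13 genes of tissue Treg cells, 5 were higher with *Il1rl1*, among them *Areg* (2.40, 2.28 to 2.52), and 1 was lower, the cytokine gene *Il10* (0.513, 0.412 to 0.631). *Il1rl1* itself defined these classes.

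Genes whose levels were most like each of the 8 were ranked by Pearson correlation of log2(CPM + 1) over 9 cell classes that do not overlap, among 7010 genes, as a description. The classes come from 1 library and differ in depth. The closest to *Dgat2* were *Stap1* (0.986), *Selenos* (0.971) and *Ccr3* (0.969), and the closest to *Dgat1* were *Prrc2c* (0.997), *Rora* (0.996) and *Icos* (0.993). *Plin2* was closest to *Gabarap* (0.993), *Cdkn1a* (0.990) and *BC005537* (0.988), and *Fabp5* to *Gsr* (0.978) and *Plbd1* (0.974). *Pparg*, with the fewest UMIs, was closest to *Ero1l* (0.985), *Gla* (0.984) and *Myo5a* (0.978), and *Scd2* to *Npepl1* (0.951), *Clasrp* (0.932) and *Rpp21* (0.930). *Insig1* was closest to *Ucp2* (0.938), *Pcyt1a* (0.934) and *Wdfy2* (0.925), and *Hmgcs1* to *Pef1* (0.926), *Dym* (0.902) and *Tmem128* (0.886). Among the 8 genes themselves, *Plin2*, *Pparg* and *Fabp5* correlated with each other at 0.953 to 0.961, *Dgat1* with *Dgat2* at 0.764 and *Insig1* with *Hmgcs1* at 0.357.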

How the data were processed

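T cells pooled from B16 and B16–IL-33 tumors were measured in 1 gene expression, 1 hashtag and 1 T cell receptor library, with no replicate. The authors deposited gene expression as counts, that is UMIs for each gene in each barcode, with no scaling. The matrix header names Cell Ranger 3.1.0 and the submitters' processing notes Cell Ranger 6.1.1 with mm10, on a combined human and mouse reference. The hashtag and receptor tables were likewise deposited as counts of UMIs.

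Barcodes with 200 to 2500 detected genes and under 5% mitochondrial UMIs were kept, as in the methods of the study. Classes were set from each cell's own UMIs. A level is the UMIs of a gene summed over a class and divided by all UMIs of the class, per 1000000 (CPM), with an exact Poisson interval. Ratios have exact conditional binomial intervals and shares Clopper-Pearson intervals, all at 95%. Shares were also taken after 1 random draw of 1500 UMIs per cell, which left out 454 Treg cells. A gene was counted as higher or lower at 1.5-fold if it had at least 50 UMIs in the classes compared. No doublet caller was run, and barcodes with at least 2 productive beta chains were left out as an alternative.

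The 8 genes and the pathway lists were chosen with earlier results of these data known. The genes named are all 8 members, up to 2 highest and 2 lowest of each list past 1.5-fold by *Il1rl1* or *Areg*, and the 3 most alike per member. The results of 3 genes are not reported here, and 1 is left out of a figure. The list genes named against Tconv or CD8, other T cells with *Il1rl1* and barcodes outside the filter were added after values were seen. Python 3.11.15, numpy 2.4.6, SciPy 1.17.1 and pandas 2.3.3 were used. The ratios were tested on simulated Poisson counts, which make the same assumption as the intervals, so uneven counts between cells were not covered. Coordinates are from GENCODE on GRCm38.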

Additional observations from a re-analysis of the deposited data

Results flagged for a closer look

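The ratio of *Fabp5* between Treg cells with and without *Il1rl1* stood out because its interval lay below 1 in cells with no *Areg* UMI and above 1 in cells with at least 3. It was 0.800 (0.669 to 0.951, 150 against 947 UMIs) in the former and 1.40 (1.08 to 1.81, 99 against 155 UMIs) in the latter. In cells with 1 to 2 *Areg* UMIs it was 2.89 (2.07 to 4.01, 67 against 88 UMIs), where 1 cell held 32 of the 67 UMIs. The difference between these ratios was not tested. The share of cells with a *Fabp5* UMI was 19.9% against 20.4% in cells with no *Areg*, and 29.2% against 27.0% in cells with at least 3 *Areg* UMIs. Without the 1 cell that held 137 *Fabp5* UMIs, the ratio in cells with no *Areg* was 0.934 (0.779 to 1.11), and its interval then included equal levels. Summed macrophage and monocyte markers were at 110 CPM in Treg cells with *Il1rl1* and 280 in those without, and their part in these ratios was not tested.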

How the results depend on the processing

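No paired analysis was possible because all cells come from 1 pooled library and no test was made over samples. Of 142 alternative values of the counts of genes past 1.5-fold, 125 were within 1.5 times the reported count. A reported count of 0 that stayed at 0 was scored as within, so the 125 include such cases. By *Il1rl1*, the 2 genes higher became 1 in cells with no *Areg* (*Dgat1* at 1.496), with at least 2 *Foxp3* UMIs required and at 2-fold. Without cells holding at least 2 macrophage UMIs, *Fabp5* also passed 1.5-fold by *Il1rl1*. The 1 gene lower became 2 in cells with no *Areg* and where *Cd3e* was required, by addition of *Insig1* (0.662 and 0.645), and 0 after thinning, at 2000 to 4000 UMIs (*Hmgcs1* at 0.814) and at 2-fold. By *Areg*, the 1 gene higher became 2 at 2000 to 4000 UMIs (*Plin2*, 1.56) and without cells holding at least 2 macrophage UMIs (*Fabp5*, 1.51), and the 0 lower became 1 with 2 *Foxp3* UMIs (*Hmgcs1*, 0.652). Against Tconv, 5 became 2 at 2-fold. In cycling Treg cells, 0 higher became 2 with no upper gene limit (*Pparg* and *Scd2*), and 0 lower became 1 with no upper gene limit and by averaging CPM over single cells (*Dgat2*, 0.574 and 0.557), after thinning and at 2000 to 4000 UMIs (*Insig1*, 0.567 and 0.554). The cause of these moves was not tested.

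All 192 alternative values of the 18 ratios past 1.5-fold kept their direction, and 161 stayed within the reported interval. The ratios were picked as past 1.5-fold in these same cells, which most alternatives share, so the kept direction is no separate support. Alternatives with 0 UMIs in a class gave no ratio and are not among the 192. By *Il1rl1*, *Dgat2* ranged from 4.75 to 7.40, *Dgat1* from 1.496 to 1.70 and *Hmgcs1* from 0.520 to 0.814, and *Dgat2* by *Areg* ranged from 1.56 to 3.18. Without a minimum of UMIs, 12.8% of all genes were higher by *Il1rl1*, 11.6% by *Areg*, 23.8% against Tconv and 15.4% in cycling cells. At least 2 tag UMIs left *Dgat2* at 2 UMIs against 0, and clones of at least 3 Treg cells held 0, so neither gave a ratio. Depth limits *Pparg* most, with 33 UMIs in Treg cells.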

Other observations

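The single lipid genes named here, none of them among the 8, were chosen after their values in Treg cells and the other T cells were seen. *Hilpda*, which encodes a droplet protein that inhibits triglyceride lipolysis, was at 231 CPM in Treg cells, 105 in Tconv (ratio 2.20, 1.99 to 2.42) and 104 in CD8 T cells (2.23, 2.02 to 2.46). The acyltransferase gene *Agpat4* was at 73.2 CPM in Treg and 27.1 in Tconv cells (2.70, 2.24 to 3.28). *Mylip*, which encodes a ubiquitin ligase of sterol homeostasis, was lower in Treg cells than in Tconv (0.594, 0.464 to 0.761) and CD8 T cells (0.616, 0.480 to 0.791). Of 16 genes of sterol sensing and transport, 5 were at least 1.5-fold higher and 1 lower against Tconv, and 8 were higher and 1 lower against CD8 T cells. Of 16 fatty acid oxidation genes, 2 were higher and 0 lower in either comparison. Over all genes the shares higher and lower were 12.6% and 5.82% against Tconv and 22.5% and 7.16% against CD8 T cells, and nothing particular to these lists is read from the counts.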
